A study of Mus musculus with 16 samples.

Results

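Slc17a7, Neurod6, Cux2, Rasgrf2, Rorb, Fezf2, Etv1, Tbr1 and Foxp2 are genes by which the excitatory neurons of the cerebral cortex and their layers are recognised. They were chosen as a fixed list of 9 names, and every array probe whose RefSeq accession led to one of these symbols was used. Of the 9 genes, 8 had a probe (10 probes, since Tbr1 and Rasgrf2 had 2 each), out of 17436 genes tested in all. No probe was matched to Rorb, a nuclear receptor of layer 4 neurons, so it has no value here.

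The cortex was taken from 16 male mice, 28 to 42 weeks old, with 1 array per mouse and 4 mice in each of 4 groups. The mice were Neil1-/- animals backcrossed to C57BL/6 or wild-type littermates, and each genotype was either exposed to 6 Gy of whole-body gamma radiation at 0.74 Gy/min or handled as a sham. Cortex was collected 20 h later. The protocols describe intraperitoneal BrdU, a thymidine analogue that marks DNA synthesis, at 100 mg/kg before exposure and again 2 h after it. Neil1 encodes a glycosylase that starts the repair of oxidised bases. The labels do not say how the Neil1 allele was made.

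Excitatory neurons of the cortex release glutamate and are born in sequence, with deep layers formed before upper layers. Transcription factors that restrain one another fix this layer identity during development, and several stay on in the adult: Fezf2 for the layer 5 neurons that project out of the cortex, Tbr1 for layer 6 neurons that project to the thalamus, and Cux2 for upper layers. In adult cortex they are used as marks of how many neurons of each layer a sample holds and of how strongly these neurons express their identity genes. In RNA from a piece of tissue, fewer cells of a type and less RNA per cell cannot be told apart.

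The starts of 3 of the genes, Fezf2, Tbr1 and Neurod6, are shown as an example of genes whose levels went together from mouse to mouse, as described below. Cux2 and Etv1, whose starts are not shown, also went with some of them. The letters are the 300 bases around the annotated RefSeq start in GRCm38.p6, 250 before it and 50 after it, written on the gene's own strand. Capitals mark E-boxes (CANNTG, which reads the same on both strands), the motif bound by basic helix-loop-helix factors such as NEUROD6 itself.
Fezf2, chr14:12345816-12346115, minus strand: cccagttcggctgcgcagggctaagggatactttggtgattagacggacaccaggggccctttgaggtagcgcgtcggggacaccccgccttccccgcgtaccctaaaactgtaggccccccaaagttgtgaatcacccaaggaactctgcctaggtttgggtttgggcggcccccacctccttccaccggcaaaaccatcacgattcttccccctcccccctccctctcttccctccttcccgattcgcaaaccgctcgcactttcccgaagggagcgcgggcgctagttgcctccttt
Tbr1, chr2:61804203-61804502, plus strand: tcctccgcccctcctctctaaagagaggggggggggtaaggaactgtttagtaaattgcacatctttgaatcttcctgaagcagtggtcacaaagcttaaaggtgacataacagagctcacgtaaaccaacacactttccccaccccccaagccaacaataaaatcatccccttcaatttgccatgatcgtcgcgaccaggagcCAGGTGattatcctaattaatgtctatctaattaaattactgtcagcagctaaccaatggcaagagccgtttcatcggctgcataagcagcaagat
Neurod6, chr6:55681214-55681513, minus strand: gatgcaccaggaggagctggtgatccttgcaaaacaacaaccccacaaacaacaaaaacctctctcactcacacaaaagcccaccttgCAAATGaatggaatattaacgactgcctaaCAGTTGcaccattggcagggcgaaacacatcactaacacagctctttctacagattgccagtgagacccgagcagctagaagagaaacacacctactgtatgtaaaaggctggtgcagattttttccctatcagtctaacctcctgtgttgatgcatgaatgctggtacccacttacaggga
The Neurod6 window held 2 E-boxes, that of Tbr1 held 1 and that of Fezf2 held 0, while 72.3% of all 32851 promoter windows held at least 1. A T-box motif, AGGTGTGA on either strand, was in 1.28% of all windows and in 0 of the 11 windows listed for 8 of the 9 genes. These matches describe the letters of the windows and nothing else.

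Every level below is the log2 of a probe's processed intensity minus the log2 of the 75th percentile of its own array, so 0 stands for that percentile. The levels of different probes cannot be set against each other. All 10 probes were well above background on all 16 arrays, as the scanner's software judged it, and 0 spots in the data set were saturated. The 75th percentile itself was 2415 ± 274 (SD, n = 4) intensity units in sham and 2301 ± 235 in irradiated wild-type mice, and lower in the labelled knockouts, at 1778 ± 343 in sham and 1333 ± 301 in irradiated mice. Each genotype lay on a slide of its own with its own scan time, so genotype and slide cannot be told apart in any difference between genotypes below. Within both slides, row 1 held the sham and row 2 the irradiated arrays, and the slide column equalled the replicate number. Irradiation and slide row therefore cannot be told apart in any radiation difference below. The Neil1 probe was brighter in the labelled knockouts, at -2.60 to -2.15, than in wild type, at -4.32 to -3.30. The log2 difference was 1.27 in sham (limma adjusted p = 0.0246) and 1.39 after irradiation (limma adjusted p = 0.00725). That probe therefore does not check the genotype labels, and the text writes "labelled knockout" throughout.

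Slc17a7 encodes VGLUT1, the vesicular transporter that loads glutamate into synaptic vesicles in most cortical excitatory neurons. Its levels in replicates 1 to 4 were 3.39, 2.83, 2.40 and 2.54 in sham wild-type mice and 3.59, 2.75, 2.56 and 2.91 in irradiated wild type. In the labelled knockout they were 3.60, 3.14, 3.17 and 2.56 in sham and 3.38, 2.83, 3.75 and 2.84 after irradiation. The 4 groups overlapped over most of their width. The arrays in slide column 1, which are replicate 1 of each group, lay high, between 3.38 and 3.60, against a median of 2.83 in the other 12 arrays. In the same column the 75th percentile was also the highest of each group, and the part of the slide column in the Slc17a7 spread was not tested.

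Neurod6, a basic helix-loop-helix transcription factor kept on in excitatory neurons of the forebrain, had levels of 1.51, 0.45, 1.39 and 1.59 in sham wild-type mice and of 0.98, 1.67, 0.90 and 1.42 in irradiated wild type. The labelled knockout gave 1.48, 1.43, 1.32 and 1.70 in sham and 1.39, 1.23, 1.74 and 2.02 after irradiation. Replicate 2 of wild-type sham stood lowest of all 16 arrays, and the groups overlapped.

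Among the upper-layer genes, Cux2 encodes a homeodomain factor of layers 2 to 4. It was at 1.38, 0.55, 0.72 and 0.70 in sham wild-type mice and at 1.14, 1.01, 0.35 and 1.08 in irradiated wild type. The labelled knockout gave 1.37, 1.27, 1.19 and 1.60 in sham and 1.66, 1.24, 1.37 and 1.31 after irradiation. All 8 labelled knockout arrays lay above 7 of the 8 wild-type arrays, the exception being replicate 1 of wild-type sham. Rasgrf2, an exchange factor that activates Ras and Rac and marks layer 2 and 3 neurons, was read by 2 probes. In wild type its brighter probe gave 3.78, 3.82, 3.85 and 3.40 in sham mice and 3.66, 3.91, 3.94 and 4.32 in irradiated mice. In the labelled knockout it gave 3.31, 3.98, 3.89 and 3.90 in sham mice and 3.74, 3.76, 3.57 and 3.85 in irradiated mice. On that probe the 4 groups overlapped.

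In layer 5, Fezf2, a zinc finger repressor that sets the fate of subcerebral projection neurons, was at 0.19, -1.05, -0.32 and -0.17 in sham wild-type mice and at -0.42, 0.34, -1.10 and -0.11 in irradiated wild type. The labelled knockout gave -0.08, -0.06, -0.50 and 0.47 in sham and -0.15, -0.45, -0.02 and 0.54 after irradiation. Its 2 lowest arrays, replicate 2 of wild-type sham and replicate 3 of irradiated wild type, set the width of the wild-type groups. Etv1, an ETS factor of layer 5 neurons, was at 3.66, 3.65, 3.80 and 3.89 in sham wild-type mice and at 3.32, 3.99, 3.51 and 4.08 in irradiated wild type. It was at 3.14, 3.96, 3.65 and 4.07 in sham labelled knockout mice and at 3.16, 3.39, 3.56 and 3.99 in irradiated labelled knockout mice. Replicate 4 was highest in each of the 4 groups, and replicate 1 was lowest in 3 of them.

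In layer 6, Tbr1, a T-box factor needed for the corticothalamic fate, had levels on its brighter probe of 4.10, 3.72, 4.41 and 4.30 in sham wild-type mice and 4.01, 4.48, 4.10 and 4.40 in irradiated wild type. The labelled knockout gave 4.24, 4.40, 4.53 and 4.62 in sham and 4.61, 4.65, 4.32 and 4.96 after irradiation. The groups overlapped, and the group means ran from 4.13 in wild-type sham to 4.64 in irradiated labelled knockout mice. Foxp2, a forkhead factor of layer 6 neurons that the projection neurons of the striatum express too, was at -3.54, -2.57, -2.79 and -2.42 in sham wild-type mice and at -3.28, -3.36, -1.55 and -3.10 in irradiated wild type. It was at -2.89, -3.70, -2.87 and -3.37 in sham labelled knockout mice and at -3.67, -2.55, -4.08 and -3.47 in irradiated labelled knockout mice. Replicate 3 of irradiated wild type stood apart at the top, and the groups overlapped.

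**Figure D1:**
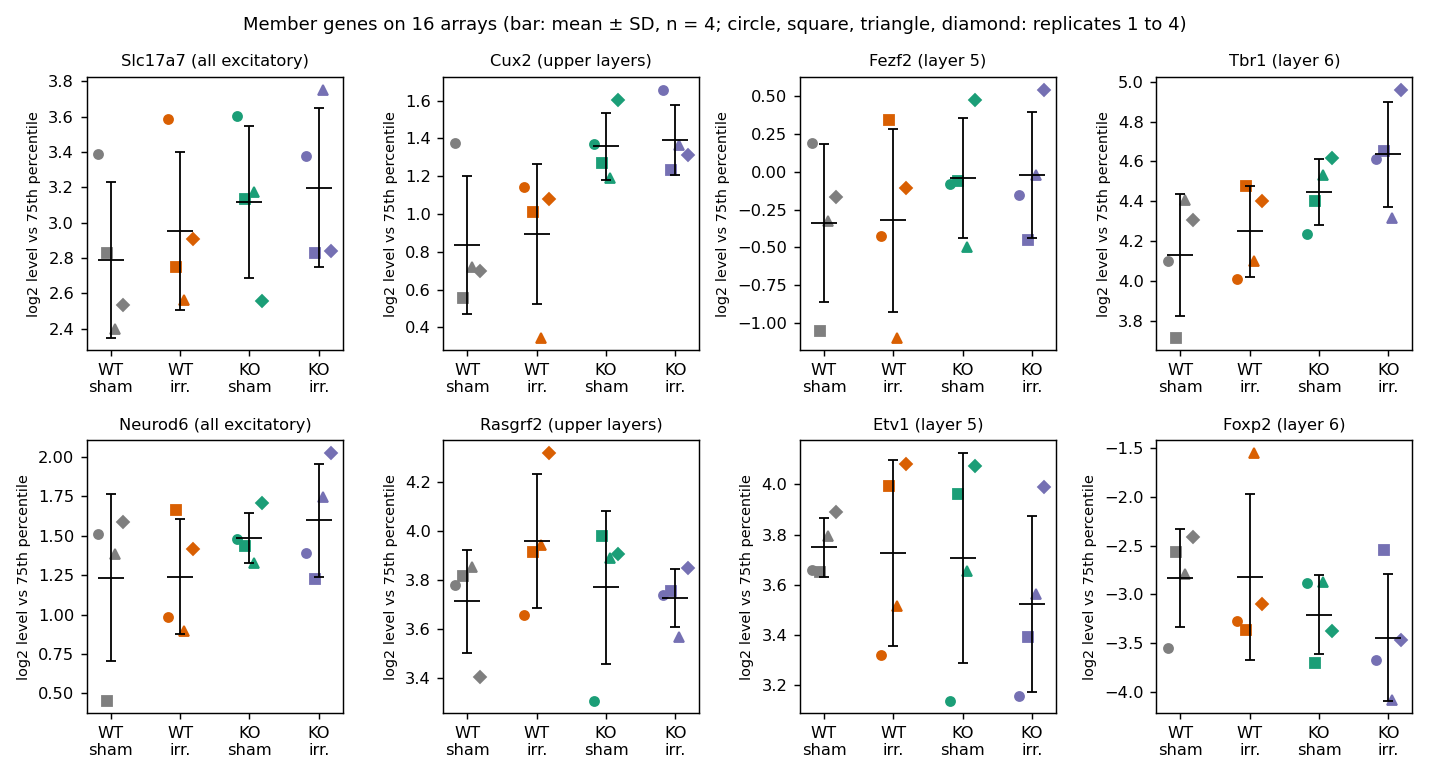
Log2 level relative to the array's 75th percentile (y axis) for the 8 genes with a probe, with 1 symbol per mouse and bars giving the mean ± SD of 4 mice in each group (x axis). In the Cux2 panel the labelled knockout arrays, between 1.19 and 1.66, lie above all wild-type arrays but 1, while the groups overlap in the other panels.

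Irradiation was the first question the design asks of these genes. In wild type, 0 of the 8 genes passed the test (limma on all 16 arrays, Benjamini-Hochberg over 17436 genes, adjusted p under 0.05, against 0.0746% of all genes), and 0 had an unadjusted p under 0.05 (1.97% of all genes). Their differences, irradiated minus sham, ran from -0.02 for Etv1 to 0.25 for Rasgrf2, 7 above 0 and 1 below (54.5% of all genes were above 0), with a median of 0.04 beside 0.01 for all genes. In the labelled knockout, 0 of 8 passed (0.12% of all genes) and 0 had an unadjusted p under 0.05 (4.63% of all genes). There the differences ran from -0.24 for Foxp2 to 0.19 for Tbr1, 5 above 0 and 3 below (49.8% of all genes were above 0), with a median of 0.03. The limma adjusted p was 0.9998 in wild type and 0.9995 in the labelled knockout for each of the 8 genes.

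The intervals show the range of radiation responses that the arrays do not exclude for a gene. For Tbr1 the 95% interval of the fold between irradiated and sham mice was 0.84 to 1.40 in wild type and 0.88 to 1.47 in the labelled knockout. For Cux2 it was 0.78 to 1.40 and 0.76 to 1.37 in the same order. Foxp2 had the widest interval, 0.55 to 1.84 in wild type. Each interval is for 1 gene without adjustment over all genes, and its ends are not a limit of detection. The smallest change that 4 mice per group would detect was not worked out. Averaged over both genotypes, 0 of 8 genes were called (0.304% of all genes) and 0 had an unadjusted p under 0.05 (5% of all genes), with differences between -0.11 for Foxp2 and 0.15 for Tbr1.

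The differences between genotypes were larger in size than those of irradiation for Cux2, Slc17a7, Fezf2, Neurod6, Tbr1 and Foxp2, a contrast of sizes that was not itself tested, and 0 of the 8 genes were called in either arm. In sham mice, labelled knockout minus wild type, 6 genes were above 0 and 2 below (45.3% of all genes were above 0), with a median of 0.27 beside -0.02 for all genes. Among them 0 of 8 were called by limma (0.0516% of all genes) and 1 had an unadjusted p under 0.05 (7.69% of all genes). That gene was Cux2, at 0.84 ± 0.37 (SD, n = 4) in wild-type and 1.36 ± 0.18 in labelled knockout mice. The log2 difference was 0.52 ± 0.20 (SE), a fold of 1.44 with a 95% interval of 1.07 to 1.92, and the limma adjusted p was 0.546. Slc17a7 followed at 0.33, Tbr1 at 0.31 and Fezf2 at 0.30, while Foxp2 was at -0.38.

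After irradiation 5 genes were above 0 and 3 below (45.3% of all genes were above 0), 0 of 8 genes were called by limma (1.18% of all genes), and 2 had an unadjusted p under 0.05 (16.6% of all genes). Cux2 was again the member with the smallest p, at 0.90 ± 0.37 (SD, n = 4) in wild type and 1.39 ± 0.18 in labelled knockout mice. Its fold was 1.41 with an interval of 1.05 to 1.89, and the limma adjusted p was 0.216. On the brightest probe of each gene, the 2 groups did not overlap for Cux2, as for 8.73% of all genes, and they overlapped for the other 7. On the dimmer Rasgrf2 probe, described below, they did not overlap either. It was at -2.99 to -2.60 in the labelled knockout and at -3.85 to -3.00 in wild type. The lowest labelled knockout value, -2.993, and the highest wild-type value, -3.002, nearly met. Before scaling, the intensities of that probe overlapped, as given below. The share of all kept probes without overlap was not counted. Tbr1 had a fold of 1.31 with an interval of 1.01 to 1.68 (limma adjusted p = 0.27). Neurod6 was at 0.36 and Fezf2 at 0.30 on the log2 scale, and Foxp2 was at -0.62 (fold 0.65, interval 0.35 to 1.19).

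Some of these values rested on 1 mouse. Without replicate 3 of irradiated wild type, the Cux2 difference after irradiation was 0.31 instead of 0.50, that of Fezf2 was 0.04 instead of 0.30, and that of Foxp2 was -0.20 instead of -0.62. Without replicate 2 of wild-type sham, the difference in sham mice was 0.06 instead of 0.30 for Fezf2, 0.18 instead of 0.31 for Tbr1 and -0.01 instead of 0.25 for Neurod6. In sham mice Slc17a7 ranged from 0.17 without replicate 1 of the labelled knockout to 0.53 without replicate 1 of wild type, and Foxp2 from -0.62 without replicate 1 of wild type to -0.21 without replicate 2 of the labelled knockout. Fezf2 in sham mice also moved to 0.13 without replicate 4 of the labelled knockout and to 0.47 without replicate 1 of wild type. After irradiation, leaving out replicate 4 of the labelled knockout gave 0.21 instead of 0.36 for Neurod6 and 0.11 instead of 0.30 for Fezf2, and leaving out its replicate 3 gave -0.41 for Foxp2. Cux2 in sham mice stayed between 0.43 and 0.70 whichever array was left out.

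Whether irradiation acted differently in the 2 genotypes was tested as an interaction. By limma 0 of 8 genes were called (0% of all genes) and 0 had an unadjusted p under 0.05 (1.27% of all genes). The differences between the 2 radiation effects ran from -0.29 for Rasgrf2 to 0.10 for Neurod6, and their 95% intervals reached from -1.48 to 0.99.

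**Figure D2:**
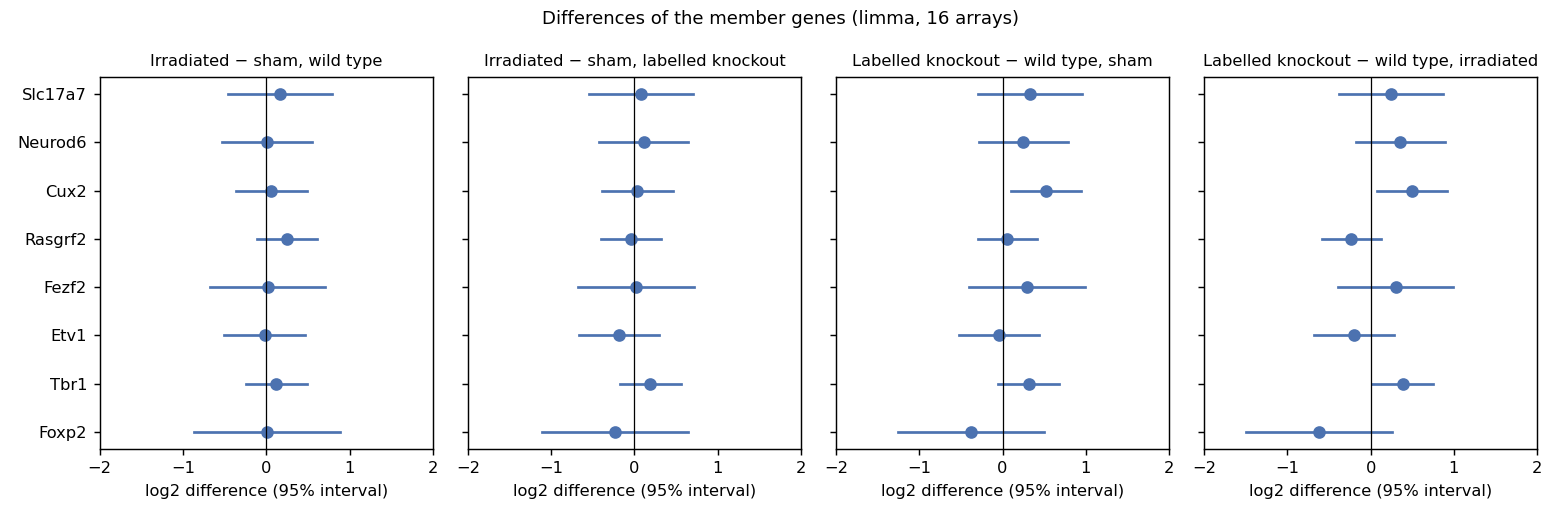
Log2 difference (x axis, point) with its 95% interval (line) for the 8 genes (y axis) in 4 comparisons fitted by limma over 16 arrays. The points of both radiation panels lie between -0.24 and 0.25, and in both genotype panels the interval of Cux2 lies above 0, as does that of Tbr1 after irradiation.

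The second probes of Rasgrf2 and Tbr1 were dimmer, and for Rasgrf2 the order of the group means differed between its probes. The dimmer Rasgrf2 probe was at -3.62, -4.12, -4.36 and -4.21 in sham wild-type mice and at -3.85, -3.63, -3.68 and -3.00 in irradiated wild type. It was at -4.33, -3.34, -2.80 and -2.80 in sham labelled knockout mice and at -2.96, -2.60, -2.99 and -2.60 in irradiated labelled knockout mice. The group means went up from -4.08 through -3.54 and -3.32 to -2.79 in that order. The array percentile that is subtracted went down in the same order, with means of 2415, 2301, 1778 and 1333 intensity units. Before that subtraction, the dimmer probe's intensity was 112 to 222 units in sham and 175 to 247 in irradiated wild type. In the labelled knockout it was 111 to 219 in sham and 153 to 227 after irradiation, so the intensities overlapped. The part of the scaling in the rise of the group means was not tested. With the group means removed, the dimmer and the brighter Rasgrf2 probe went up and down together over the 16 arrays (Pearson r = 0.75, Spearman rho = 0.65, r = 0.61 without the 2 arrays farthest from the median of the brighter probe).

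Fitted probe by probe, the dimmer Rasgrf2 probe differed by 0.76 between genotypes in sham (limma adjusted p = 0.454 over 39589 probes, where 0.0455% were called) and by 0.75 after irradiation (adjusted p = 0.168, where 4.67% were called). The brighter probe gave 0.06 and -0.23 for the same comparisons, so the direction after irradiation depended on the probe. The mean of both probes gave 0.26. Averaged over genotypes, irradiation gave 0.53 on the dimmer probe (limma adjusted p = 0.795, 0.147% of probes called) and 0.10 on the brighter. With normexp background correction in place of the scanner's own, the genotype difference of the dimmer probe after irradiation had an adjusted p of 0.0103 by limma, below the threshold of 0.05, as had 37.3% of all probes under that setting. The files do not say which part of the transcript each probe reads, and the part of local background in the dimmer signal was not tested.

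The dimmer Tbr1 probe was at -3.88, -4.29, -3.57 and -3.99 in sham wild-type mice and at -3.96, -3.51, -4.29 and -4.14 in irradiated wild type. In the labelled knockout it was at -3.69, -3.47, -4.49 and -2.92 in sham and at -3.70, -3.39, -4.36 and -3.38 after irradiation. Its genotype differences, 0.29 in sham and 0.27 after irradiation, lay close to those of the brighter probe, 0.31 and 0.39, and none passed the test. With group means removed, the Tbr1 probes had r = 0.54 (rho = 0.58, 0.47 without the farthest 2).

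**Figure D3:**
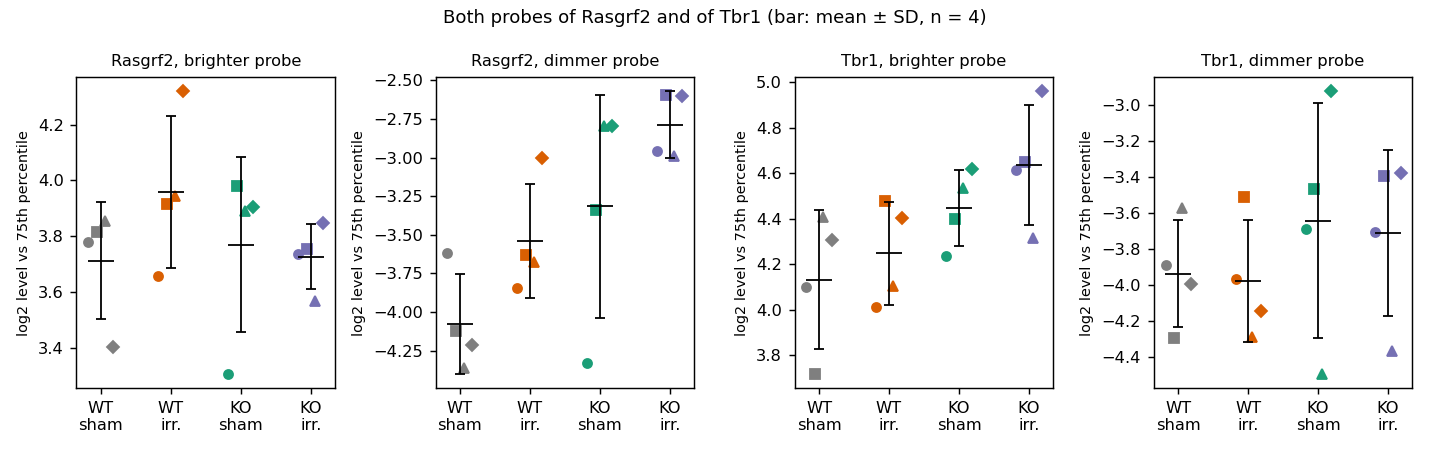
Log2 level relative to the array's 75th percentile (y axis) on both probes of Rasgrf2 and of Tbr1, with 1 symbol per mouse and bars giving the mean ± SD of 4 mice per group (x axis). The dimmer Rasgrf2 probe goes from a mean of -4.08 in wild-type sham to -2.79 in the irradiated labelled knockout, while the means of the brighter probe stay between 3.71 and 3.96.

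For Foxp2, Fezf2, Slc17a7, Neurod6 and Etv1, the SD within groups was larger than every difference between groups given above from all 16 arrays. The SD within groups, pooled over the 4 groups, was 0.63 for Foxp2, 0.49 for Fezf2, 0.44 for Slc17a7, 0.38 for Neurod6, 0.33 for Etv1 and 0.29 for Cux2 on the log2 scale. It was 0.25 for Tbr1 and 0.24 for Rasgrf2, close to the median of all genes (0.25). Set against the 1000 genes nearest to it in level, each SD was above that of 94.7% of them for Slc17a7, 94.1% for Fezf2, 90.1% for Etv1, 88.1% for Neurod6, 86.8% for Foxp2, 79.6% for Tbr1, 76.6% for Cux2 and 75.3% for Rasgrf2. Against all genes, the SD of Foxp2 was above that of 90.7%, and that of Fezf2 above 84.5%. From the lowest to the highest of 16 arrays, Foxp2 covered a 5.78-fold range, Fezf2 3.11-fold, Neurod6 2.97-fold and Etv1 1.92-fold.

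This spread was shared between some of the genes. After the group means were removed, Fezf2 and Neurod6 went up and down together over the 16 mice (Pearson r = 0.90, Spearman rho = 0.94, r = 0.88 without the 2 arrays farthest from the median of Fezf2). Ranked by r with Fezf2, Neurod6 came 8 of 17379 genes. Tbr1 went with Neurod6 (r = 0.70, rho = 0.69, 0.49 without the farthest 2) and with Fezf2 (r = 0.60, rho = 0.62, 0.44 without them). Etv1 went with Tbr1 (r = 0.64, rho = 0.69, 0.63 without the farthest 2). Upper-layer genes entered too. Cux2 went with Fezf2 (r = 0.68, rho = 0.55, 0.50 without the farthest 2), and Rasgrf2 went with Etv1 (r = 0.62, rho = 0.59, 0.61 without the farthest 2). These pairs join genes of upper layers, of layers 5 and 6 and of all excitatory neurons. Each gene is on a probe of its own, but all are on the same 16 arrays.

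Other pairs ran against each other. Cux2 and Foxp2 had r = -0.77 (rho = -0.74, -0.58 without the farthest 2), and Fezf2 and Foxp2 had r = -0.67 (rho = -0.57, -0.52 without the farthest 2). Slc17a7 went against Tbr1 (r = -0.64, rho = -0.61, -0.65 without the farthest 2), although both mark excitatory neurons. Over all 28 pairs of the 8 genes, 15 had r above 0 and the median was 0.02. All 16 arrays enter each of these values, and the pairs share their arrays and their scaling, so they are given as descriptions.

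**Figure D4:**
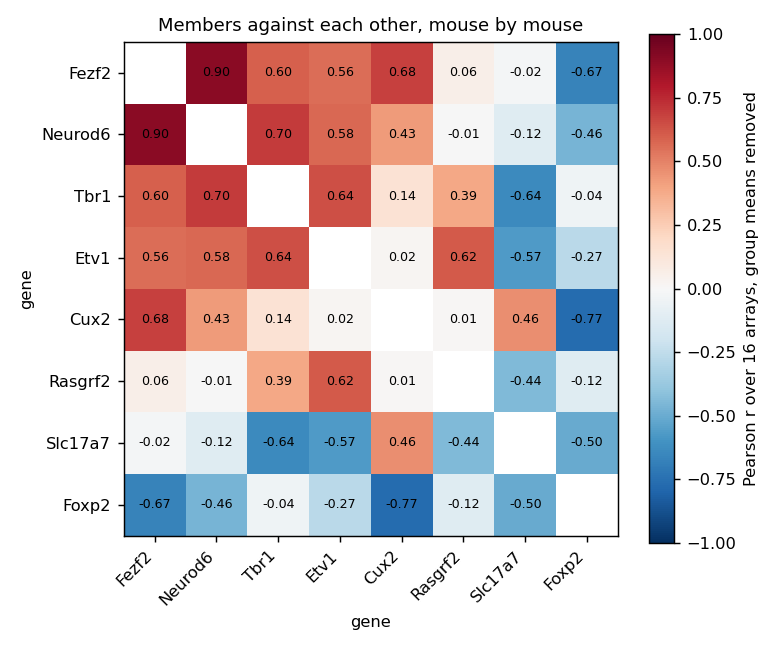
Pearson r (colour and number) between each pair of the 8 genes (both axes) over 16 arrays after the group means were removed. Fezf2 and Neurod6 have the highest r, 0.90, and Cux2 and Foxp2 the lowest, -0.77.

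Marker genes of neighbouring brain regions also varied between the arrays. The mean level of 19 striatal neuron genes, relative to the mean of the 16 arrays, ran from -2.02 in replicate 4 to 1.69 in replicate 3 of irradiated wild type. In each of the 4 groups it lay above 0 on some arrays and below 0 on others. Of these 19 genes, 16 were well above background on all 16 arrays, Drd2, Gpr52 and Isl1 being the exceptions. Replicate 3 of irradiated wild type, the array highest in striatal genes, was also the highest in Foxp2 and the lowest in Fezf2 and in Cux2. Replicate 2 of wild-type sham was highest in 20 thalamic neuron genes (1.18, against at most 0.25 on the other 15 arrays) and lay at 1.18 for the striatal list, and on it Tbr1 and Neurod6 were lowest. Of the thalamic genes, 17 of 20 were well above background on all arrays.

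Set against the striatal list with the group means removed, Etv1 had r = -0.80 (rho = -0.85), Fezf2 -0.78 (rho = -0.81), Neurod6 -0.68 (rho = -0.69), Tbr1 -0.60 (rho = -0.61) and Rasgrf2 -0.59 (rho = -0.61) over 16 arrays. Foxp2 went the other way (r = 0.63, rho = 0.54), and Slc17a7 was near 0.24 (rho = 0.31). Cux2 had r = -0.49 (rho = -0.44). Without the 2 arrays farthest from the median of the striatal list, r was -0.79 for Etv1, -0.77 for Fezf2, -0.67 for Neurod6, -0.58 for Tbr1, -0.55 for Rasgrf2, -0.29 for Cux2, 0.54 for Foxp2 and 0.42 for Slc17a7. Over all genes the lower and upper deciles of r were -0.42 and 0.42. With the striatal level as a covariate in the fit, 0 of 8 genes were called in any of the 6 comparisons. Labelled knockout minus wild type in sham mice was then 0.51 for Cux2, 0.34 for Slc17a7, 0.30 for Tbr1, 0.25 for Fezf2, 0.22 for Neurod6 and -0.33 for Foxp2. After irradiation it was 0.49 for Cux2, 0.38 for Tbr1, 0.35 for Neurod6, 0.29 for Fezf2, 0.25 for Slc17a7 and -0.61 for Foxp2. These values lay within 0.05 of those without the covariate. The striatal list itself was alike in the 2 genotypes. Its median was 0.16 in both sham groups, and after irradiation -0.04 in wild type and -0.005 in the labelled knockout. The covariate therefore had little room to move a genotype difference. With the array highest in striatal and the array highest in thalamic genes left out together, the sham differences were 0.43 for Cux2, 0.34 for Slc17a7, 0.18 for Tbr1, 0.06 for Fezf2, -0.01 for Neurod6 and -0.29 for Foxp2.

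**Figure D5:**
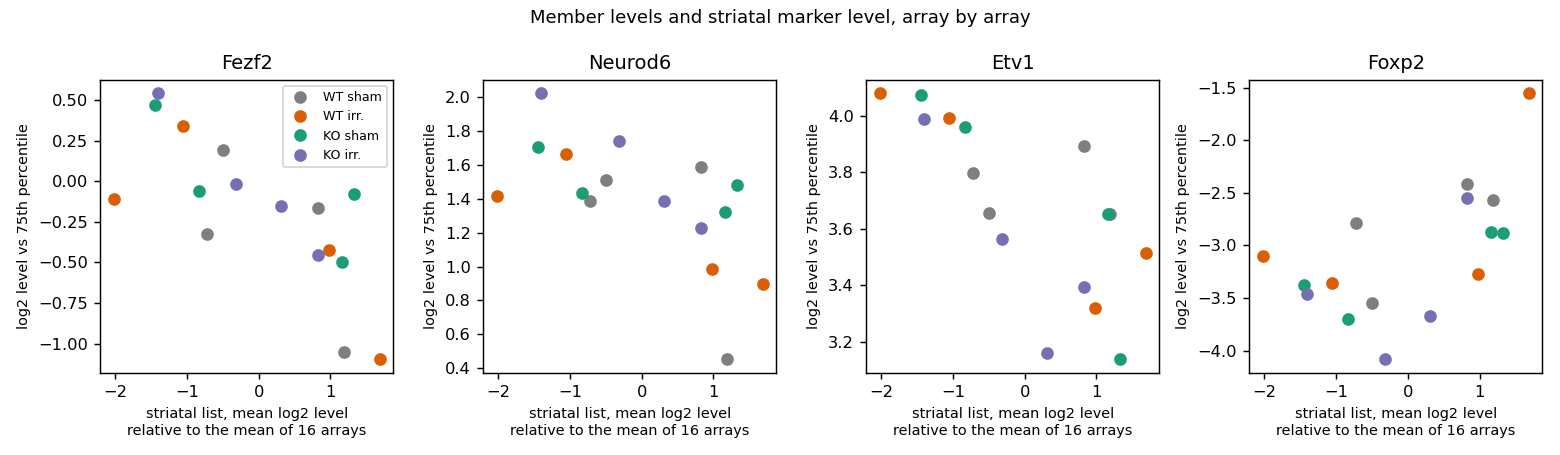
Log2 level of Fezf2, Neurod6, Etv1 and Foxp2 relative to the array's 75th percentile (y axis) against the mean log2 level of 19 striatal neuron genes relative to the mean of 16 arrays (x axis), with 1 point per mouse coloured by group. Fezf2, Neurod6 and Etv1 go down and Foxp2 goes up as the striatal level goes from -2.02 to 1.69.

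For each gene, the 2 genes whose levels over the 16 arrays were most alike, by Pearson r with group means removed, were as follows. Slc17a7 was most like Csnk2a2 (0.97) and Pcyox1l (0.97), Cux2 like Ltk (0.97) and Chkb (0.93), and Fezf2 like Lce1l (0.93) and Itprid1 (0.93). Tbr1 was most like Plcd3 (0.97) and Kalrn (0.96), and Foxp2 like Ivns1abp (0.95) and Zswim6 (0.95). Rasgrf2 was most like Zfp747 (0.87) and Smarca2 (0.86), Neurod6 like Chrna1 (0.94) and Mup4 (0.94), and Etv1 like Spindoc (0.95) and Pde1a (0.93). Each pair was picked as the top of a ranking over 17379 genes, so values this high are a property of the ranking too.

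Wider lists of the same cell classes were read beside the 8 genes. In the main fit, limma called 0 of 24 pan-excitatory, 24 upper-layer, 24 layer 5 and 25 layer 6 and subplate genes. It called 0 of 23 GABA interneuron genes too, and both counts hold for all 6 comparisons. The calls that appeared under alternative settings are given below. At an unadjusted p under 0.05 the pan-excitatory list had 1 gene for irradiation in wild type (1.97% of all genes), 0 for irradiation in the labelled knockout (4.63% of all genes), 3 for genotype in sham (7.69% of all genes) and 3 for genotype after irradiation (16.6% of all genes).

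Between genotypes in sham mice, 19 of 24 pan-excitatory genes were above 0 and 5 below, with a median of 0.17 (45.3% of all genes were above 0, with a median of -0.02). Lists of other cells were also off balance in that comparison. Of 20 pan-neuronal genes 18 were above 0 (median 0.17) and 6 had an unadjusted p under 0.05, while 1 of 20 oligodendrocyte genes (median -0.31), 2 of 20 thalamic genes (-0.40) and 0 of 14 choroid plexus genes (-0.34) were above 0. The mean level of the oligodendrocyte list, all 20 genes being well above background on all arrays, ran from -0.49 to 0.48 in wild-type and from -0.88 to 0.43 in labelled knockout sham mice. The part of these cells in the pan-excitatory difference was not tested. Camk2a, the alpha subunit of the synaptic calcium and calmodulin kinase, had a mean of 4.93 in wild type and 5.68 in the labelled knockout, a difference of 0.75 ± 0.20 (SE, limma adjusted p = 0.367). Dlg4, the scaffold PSD-95 of excitatory synapses, differed by 0.31 (limma adjusted p = 0.408, and 0.60 as the mean of its probes), and Slc30a3, the transporter that fills synaptic vesicles with zinc, by 0.53 (adjusted p = 0.575). The upper-layer median was 0.12 (16 above, 8 below), with Nectin3 at 0.37, Unc5d at 0.51 and Cacng3 at 0.38. The layer 5 median was -0.01 with 10 above and 14 below, and the 3 genes with the smallest p there were Deptor (-0.52, and -0.31 as the mean of its probes), Kcnn2 (-0.44, and -0.05 as the mean of its probes) and Ldb2 (0.26). In layer 6 the median was -0.08 with 8 above and 17 below, and Ccn2, a subplate gene, was at -0.40.

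After irradiation the same genotype difference had a median of -0.02 in the pan-excitatory list (11 above, 13 below), -0.03 in upper layers (11 above, 13 below), -0.12 in layer 5 (8 above, 16 below) and -0.21 in layer 6 (5 above, 20 below), beside -0.03 for all genes. Camk2a was at 0.53 (limma adjusted p = 0.185), Gria2, an AMPA receptor subunit, at -0.23 (adjusted p = 0.178, and 0.15 as the mean of its probes) and Nptx1, a synaptic pentraxin, at 0.34 (adjusted p = 0.187). The layer 5 genes with the smallest p were Tcerg1l (-0.71, and 0.01 as the mean of its probes), Chst8 (-0.44) and Cd24a (-0.45). In the GABA list Htr3a, the serotonin-gated channel of a class of interneurons, was at -1.05 (limma adjusted p = 0.062). As the mean of its probes, Htr3a was at -0.70 (limma adjusted p = 0.161). Thy1, a glycoprotein of the surface of projection neurons, was called in the pan-neuronal list at 0.45 ± 0.10 (SE, limma adjusted p = 0.0357), and it was higher in all 4 labelled knockout mice than in any wild-type mouse. It was the single call among 20 pan-neuronal genes (1.18% of all genes were called, and the groups did not overlap for 8.73%). Of these 20 genes, 17 were above 0 (45.3% of all genes), with a median of 0.21. Among them 6 had an unadjusted p under 0.05 by limma (16.6% of all genes). The Thy1 call held in 18 of 31 alternative settings and in 8 of the 16 that left out 1 array. Its limma adjusted p lay between 0.00702 and 0.206. The arrays without which the call was lost were replicates 2, 3 and 4 of irradiated wild type and replicates 2, 3 and 4 of the irradiated labelled knockout. Replicate 2 of wild-type sham and replicate 3 of labelled knockout sham were the others.

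For irradiation the median of the pan-excitatory list was 0.06 in wild type (20 above, 4 below) and -0.09 in the labelled knockout (8 above, 16 below), and the interaction had a median of -0.17 (3 above, 21 below) beside -0.01 for all genes. The oligodendrocyte list lay the other way, with a median of -0.32 in wild type (0 above, 20 below), 0.20 in the labelled knockout (18 above, 2 below) and 0.50 for the interaction (20 above, 0 below), and its part in the excitatory medians was not tested. Its mean level ran from -0.74 to 0.27 in irradiated wild type and from -0.38 to 0.47 in the irradiated labelled knockout, so the 4 groups overlapped. Dlg4 was at 0.22 in wild type and at -0.13 in the labelled knockout, and 0 of these and the interaction passed the limma test. Upper-layer genes had medians of 0.05 and -0.11, layer 5 genes 0.04 and -0.08, and layer 6 genes 0.03 and -0.10, in wild type and in the labelled knockout. The genotype comparisons share their groups with the radiation comparisons, so these medians are not independent of one another.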

How the data were processed

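Cerebral cortex RNA of 16 mice was measured on 1-colour Agilent arrays. Spot intensity is the processed signal of Agilent Feature Extraction 12.0.3.1, background-subtracted per the file headers and not scaled between arrays; the array annotation names build mm9. The authors also deposited a table of scores, with mean 0 and SD 1 in each array, which served as an alternative; the sources used here do not say how it was made.

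The log2 intensity minus the log2 of each array's 75th percentile was the value, with control spots and spots with outlier flags left out. Probes well above background on at least 4 arrays, with values on at least 12, were kept (39589 of 56605). Names came from RefSeq accessions through a GRCm38.p6 gene table (32994 of 35886 probes matched), and the brightest kept probe stood for a gene. The number of arrays limits the precision.

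The 17436 genes were fitted with limma 3.58.1 (R 4.3.3, statmod 1.5.0) in 1 model with 4 group means over 16 arrays, with 12 residual degrees of freedom. Tests were two-sided, with Benjamini-Hochberg adjustment within each of 6 contrasts and a threshold of 0.05. The fit was tested on simulated data. Levels of gene lists are means over their genes, and spread and correlations used values minus group means. Some lists overlapped. The striatal list shared 1 gene with the layer 6 and subplate list. The thalamic list shared 1 with the pan-excitatory and 1 with the GABA interneuron list. The text names Neil1, the 9 genes, called genes of the neuron lists and the 2 genes most like each member. It also names up to 3 genes of a list with the smallest p in a comparison. Called genes of the microglia, oligodendrocyte precursor and astrocyte lists are not named. Averaged over genotypes, irradiation called 3 of 20 microglia and 2 of 15 oligodendrocyte precursor genes, all lower (0.304% of all genes). Genotype after irradiation called 1 of 15 astrocyte genes, higher (1.18% of all genes). Members and lists were chosen with earlier results of these data known. Alternatives covered background correction, scaling, filters, probe rules, variance models, the replicate number as a block, the deposited scores and leaving out arrays.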

Additional observations from a re-analysis of the deposited data

Results flagged for a closer look

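Of 40 groups of 4 arrays examined (10 probes in 4 groups), 4 held an array far from the other 3, as judged by its gap relative to the range of the group (Dixon's ratio, at its 95% critical value). Chance gives such an array in about 1 in 20 groups. Cux2 in replicate 3 of irradiated wild type was at 0.35, below the other 3 arrays, which reached 1.14. Foxp2 in the same replicate was at -1.55, above the others, which reached down to -3.36. Rasgrf2 on its brighter probe was at 3.40 in replicate 4 of wild-type sham, in a group that reached 3.85, and at 3.31 in replicate 1 of labelled knockout sham, in a group that reached 3.98.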

How the results depend on the processing

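Under all 31 alternatives, 16 of which left out 1 array each, 0 of the 8 genes were called in any of the 6 comparisons on their brightest probe, and the lowest adjusted p was that of the dimmer Rasgrf2 probe (0.0103 with normexp). Of 1712 values of the 10 probes, 1585 kept their direction and side of the threshold and 126 changed sign, all of them with a size of 0.25 or less in the values reported above; the cause was not tested. Cux2 stayed between 0.43 and 0.70 for genotype in sham and between 0.31 and 0.58 for genotype after irradiation under the alternatives on the log2 scale. For genotype in sham, Camk2a had a limma adjusted p of 0.0358 with array weights. For genotype after irradiation with normexp, it was 0.0464 for Gria2, 0.0293 for Nptx1 and 0.0439 for Htr3a. Htr3a was also called with array weights (0.0400), with no filter on dim probes (0.0490) and over every kept probe (0.0352). Under each of these settings the count of all genes called in that comparison rose too, as given below.

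Values with a changed sign were as follows. With array weights, the values were -0.011 for Fezf2, -0.047 for Foxp2, -0.051 for Neurod6 (irradiation in wild type), -0.011 for Slc17a7 (irradiation in labelled knockout), 0.047 for Cux2 (the interaction). With replicate 2 of wild-type sham and replicate 3 of irradiated wild type left out together, the values were 0.016 for Etv1, -0.33 for Foxp2, -0.14 for Neurod6 (irradiation in wild type), -0.015 for Neurod6 (irradiation averaged over genotypes), -0.0094 for Neurod6 (genotype in sham), -0.015 for Fezf2, 0.094 for Foxp2 (the interaction). On the deposited scores, the values were -0.0025 for Neurod6 (irradiation in wild type), -0.0025 for Fezf2 (the interaction). With the mean of all probes of a gene, the values were 0.24 for Rasgrf2 (irradiation in labelled knockout), 0.26 for Rasgrf2, 0.15 for Gria2, 0.012 for Tcerg1l (genotype after irradiation). With normexp, the values were 0.047 for Etv1, -0.054 for Fezf2 (irradiation in wild type), -0.017 for Fezf2, 0.037 for Foxp2, 0.15 for Tbr1 dimmer probe (irradiation in labelled knockout), -0.036 for Fezf2, 0.022 for Foxp2, 0.071 for Tbr1 dimmer probe (irradiation averaged over genotypes), 0.032 for Foxp2, 0.16 for Tbr1 dimmer probe, 0.14 for Rasgrf2 dimmer probe (the interaction). With quantile normalization, the values were -0.016 for Neurod6, 0.051 for Tbr1 dimmer probe (irradiation in wild type), 0.0044 for Cux2, -0.00092 for Fezf2 (the interaction). With scaling to the median, the values were -0.025 for Fezf2 (the interaction). With the striatal level as a covariate, the values were -0.073 for Fezf2, -0.052 for Neurod6 (irradiation in wild type), -0.039 for Fezf2 (irradiation in labelled knockout), -0.056 for Fezf2 (irradiation averaged over genotypes). Leaving out 1 array at a time changed the sign of further values. For irradiation in wild type the ranges were -0.035 to 0.24 for Cux2, -0.14 to 0.11 for Etv1, -0.22 to 0.27 for Fezf2, -0.42 to 0.19 for Foxp2, -0.25 to 0.12 for Neurod6, -0.048 to 0.36 for Slc17a7, -0.022 to 0.21 for Tbr1, -0.20 to 0.081 for Tbr1 dimmer probe. For irradiation in labelled knockout the ranges were -0.053 to 0.12 for Cux2, -0.17 to 0.19 for Fezf2, -0.032 to 0.23 for Neurod6, -0.20 to 0.027 for Rasgrf2, -0.10 to 0.24 for Slc17a7, -0.35 to 0.17 for Tbr1 dimmer probe. For irradiation averaged over genotypes the ranges were -0.10 to 0.15 for Fezf2, -0.072 to 0.12 for Neurod6, -0.20 to 0.066 for Tbr1 dimmer probe. For genotype in sham the ranges were -0.16 to 0.15 for Etv1, -0.0094 to 0.37 for Neurod6, -0.046 to 0.21 for Rasgrf2. For the interaction the ranges were -0.21 to 0.070 for Cux2, -0.25 to 0.24 for Fezf2, -0.54 to 0.18 for Foxp2, -0.038 to 0.36 for Neurod6, -0.28 to 0.13 for Slc17a7, -0.037 to 0.21 for Tbr1, -0.31 to 0.21 for Tbr1 dimmer probe, -0.35 to 0.17 for Rasgrf2 dimmer probe.

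Counts of all genes called moved more. For genotype after irradiation, against 205 genes, they were 3378 with normexp, 89 with quantile normalization, 1798 with no filter on dim probes, 18 in a fit of the 2 groups only, 446 with array weights, 494 with the mean of probes, 1848 over every kept probe, 81 on the deposited scores and 9 without the 2 arrays named above. Leaving out 1 array gave 17 to 469, with 469, 31, 17 and 63 without replicates 1 to 4 of irradiated wild type and 110, 32, 37 and 30 without replicates 1 to 4 of the irradiated labelled knockout. For irradiation in the labelled knockout, against 21 genes, they were 6 in a fit of the 2 groups, 12 without the 2 arrays and 11 to 22 with 1 array left out, the low values being 11, 13 and 13 without replicates 2, 3 and 4 of labelled knockout sham. For genotype in sham, against 9 genes, they were 2 in a fit of the 2 groups, 194 with array weights, 18 over every kept probe and 5 to 14 with 1 array left out (14 without replicate 2 and 5 without replicate 3 of labelled knockout sham). Array weights gave 24 genes for irradiation in wild type, against 13, and 87 for its average over genotypes, against 53, which was 33 without the 2 arrays.

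With the replicate number as a block, 13 genes were called for irradiation in the labelled knockout, 0 of the 8 genes were called, and no other count moved by over 1.5 times. Arrays with the same number had correlations of their deviations between -0.60 and 0.52, with 11 of 24 pairs over 0.1, and 5 of 16 arrays went best with an array of their own number, so the numbers were not taken to pair the mice. A fit with slide or scan as a block was not run, because slide and scan equal genotype, slide row equals treatment and slide column equals the replicate number.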

Other observations

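Single genes did not always go with the wider list of their own layer. With group means removed, Etv1 went with the mean of 24 other layer 5 genes over the 16 arrays (Pearson r = 0.65, Spearman rho = 0.56, 0.49 without the 2 arrays farthest from the list's median). It went more closely against the mean of 24 upper-layer genes (r = -0.88, rho = -0.84, -0.85 without the 2 farthest arrays). Both also differed by slide column. Etv1 had a mean of 3.32 in column 1 and of 4.01 in column 4. In sham and irradiated wild type, then sham and irradiated labelled knockout, the upper-layer mean was -0.02, 0.15, 0.20 and 0.10 in column 1. In column 4 it was -0.09, -0.16, -0.06 and -0.11. The part of the slide column in this r was not tested. Tbr1, a layer 6 factor, went against the mean of 25 other layer 6 and subplate genes (r = -0.63, rho = -0.69, -0.51 without the 2 farthest arrays). That list shares 1 gene, Drd1a, with the striatal list, and the part of this gene in the r was not tested. Fezf2 was close to unrelated to the layer 5 list (r = 0.16, rho = 0.19, -0.03 without the 2 farthest arrays), and Cux2 to the upper-layer list (r = 0.04, rho = 0.01, 0.01 without the 2 farthest arrays).

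Cux2 went against 20 microglia genes (r = -0.72, rho = -0.77, -0.58 without the 2 farthest arrays), and Tbr1 against 15 oligodendrocyte precursor genes (r = -0.78, rho = -0.72, -0.62 without the 2 farthest arrays). Each of these values uses the same 16 arrays, scaled to 1 percentile per array, and they were picked out of 128 such values after they were seen.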
